A study of Phanerodontia chrysosporium with 12 samples.

Results

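Of 13602 gene models of the white-rot fungus Phanerochaete chrysosporium, 103 had their peak 1 h after oak extractives were added to the culture. They were chosen on their read levels. Total gene reads were counted per model, the 2 models that dominated the libraries (proteins 3014073 and 2891358) were left out, and counts were scaled to the remaining reads of each library (CPM). A gene was taken when a group mean reached 10 CPM, which 9447 genes did. Its mean log2(CPM + 2) at 1 h also had to be at least 1 above that of each other time, with every 1 h library above every other library. With another time in the place of 1 h, the same rule found 133 genes at T0, 5 at 3 h and 5 at 6 h.

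The fungus, homokaryotic strain RP78, had grown for 4 days at 37 °C in static liquid minimal medium when extractives dissolved in DMSO were added to a final 100 µg/ml. The extractives were the acetone-soluble part of oak heartwood (Quercus petraea). The harvest took place immediately (T0) or 1, 3 or 6 h later. There were 3 biological replicates at each time and 12 libraries in all. The T0 cultures had also received the extractives, so all groups share strain, medium, DMSO and extract and differ in time only. Cultures given DMSO alone were not analysed here, and a response to the extract cannot be told apart from one to the solvent, to handling or to time in culture.

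White-rot fungi live in wood whose heartwood is loaded with phenolic and other defence compounds, the extractives. Fungal cells that meet such compounds are known to turn on transport and detoxification genes, among them cytochrome P450s, glutathione transferases and efflux pumps. Transcripts that rise within the first hour and then decline are a common form of early stress response in fungi, in which new transcription and rapid mRNA turnover act together. The files list genes by numeric protein ID and do not pair the IDs with names, so no function can be given for any of the 103. They are described by time course, level, length and read number, and a few by ID. In bulk RNA, fewer cells that express a gene and less of its RNA per cell cannot be told apart.

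The libraries held between 2137932 and 10697807 total gene reads. The 2 dominant models took between 3.12% and 65.9% of them, which left 729521 reads in 1 h replicate 2, the shallowest library, and 10364009 in 3 h replicate 1, the deepest. A count of 3 reads, the level that a count of 0 still allows, stood for 4.11 CPM in the shallowest library and 0.289 CPM in the deepest, for counting error only.

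Summed over the 103 genes, 3.14% ± 0.613 (SD, n = 3) of the reads left after the dominant pair belonged to them at 1 h. Their share was 0.636% ± 0.117 at T0, 0.764% ± 0.0701 at 3 h and 0.678% ± 0.0302 at 6 h. Library by library, replicates 1 to 3 gave 0.632%, 0.754% and 0.521% at T0, then 2.88%, 2.70% and 3.84% at 1 h. The 3 h libraries gave 0.786%, 0.820% and 0.685%, and the 6 h libraries 0.679%, 0.648% and 0.708%. The 1 h libraries stood clear of the others, which overlapped between times. The height at 1 h follows from the choice of genes. A fall by 3 h and 6 h follows from it too, since the rule kept each other time below 1 h by its full margin in every member. Genes that rose and stayed up were left out by it. How close the shares at 3 h and 6 h came to those at T0 was not set by the rule beyond that bound.

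**Figure D1:**
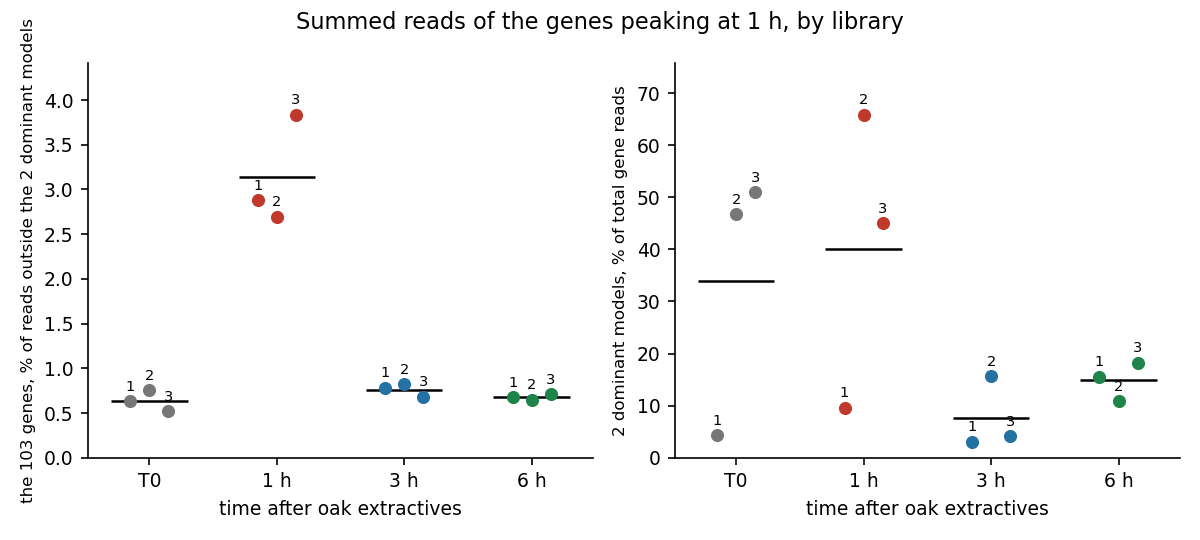
Left, the summed reads of the 103 genes as a percent of the reads outside the 2 dominant models; right, the dominant models as a percent of total gene reads. Points are libraries with their replicate number and lines are group means (n = 3); the 1 h libraries lie between 2.70% and 3.84% on the left while their dominant share runs from 9.61% to 65.9%.

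The dominant models' share was high and scattered at T0 and 1 h (34.0% ± 25.8 and 40.2% ± 28.4) and low at 3 h and 6 h (7.64% ± 6.98 and 14.9% ± 3.74, SD, n = 3). For replicates 1 to 3 it was 4.31%, 46.8% and 50.9% at T0 and 9.61%, 65.9% and 45.0% at 1 h. The order of the 1 h libraries in this share was not their order in the share of the 103 genes, which had to be high in each of them. With the dominant models kept in the library size, the rule found 25 genes, all of them among the 103. The part of the dominant models in the height at 1 h was not tested.

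The members differed widely in how far they rose. At 1 h the mean log2(CPM + 2) was higher than at T0 by a median of 1.73 (quartiles 1.37 and 2.60, highest 5.08). The rise was at least 2 on this scale in 42 genes, at least 3 in 16 and at least 4 in 6. The margin of 1 h over the next highest time had a median of 1.40 (quartiles 1.19 and 1.85), and it reached 2 in 23 genes and 3 in 3 genes. The next highest time was T0 in 45 genes, 3 h in 46 and 6 h in 12. At the edge of the rule, the members with the smallest margins had 1.004, 1.016 and 1.035, and the nearest genes outside had 0.995, 0.995 and 0.989. For the gap between the lowest 1 h library and the highest other library, the nearest values were 0.034, 0.069 and 0.071 inside and -0.021, -0.076 and -0.092 outside.

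**Figure D2:**
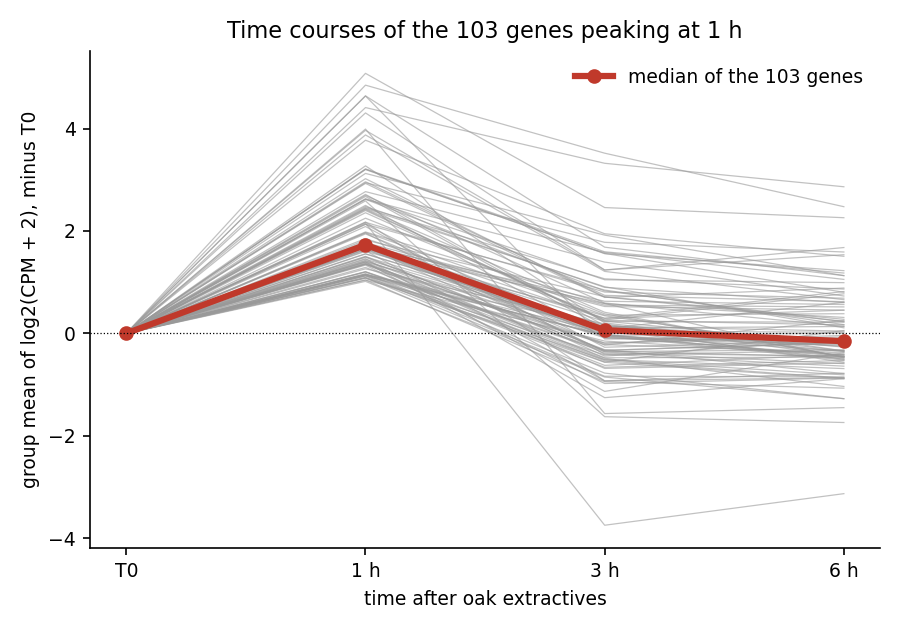
Group means of log2(CPM + 2) minus the T0 mean for each of the 103 genes (grey) and their median (red) at T0, 1, 3 and 6 h. The median lies at 1.73 at 1 h, 0.06 at 3 h and -0.15 at 6 h, with single genes from -3.75 to 3.52 at 3 h.

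Protein 2990412, a model of 625 nt, had the widest margin of all, 4.64. It had 8.70, 46.2 and 23.7 CPM at T0, 620, 418 and 780 CPM at 1 h, 14.0, 56.5 and 9.29 CPM at 3 h and 10.6, 54.3 and 12.6 CPM at 6 h (replicates 1 to 3). The lowest 1 h library, at 418 CPM, was above the highest of the other libraries, 3 h replicate 2 at 56.5 CPM. The libraries of T0, 3 h and 6 h overlapped, and replicate 2 was the highest of the 3 at each of these times. The edgeR log2 fold change was 0.15 (SE 0.797, Benjamini-Hochberg adjusted p = 0.937) at 3 h and 0.18 (SE 0.797, adjusted p = 0.929) at 6 h against T0.

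Protein 2990417, of 687 nt, followed with a margin of 3.99. It had 6.07, 56.2 and 19.6 CPM at T0, 359, 232 and 481 CPM at 1 h, 2.89, 16.8 and 2.25 CPM at 3 h and 4.52, 8.88 and 5.00 CPM at 6 h. On the log2(CPM + 2) scale its T0 libraries spread the most, and the T0 group overlapped those of 3 h and 6 h. The edgeR log2 fold change was -1.87 (SE 0.826) at 3 h against T0, with a Benjamini-Hochberg adjusted p of 0.182, and -1.998 (SE 0.831) at 6 h against T0, with an adjusted p of 0.162. It ended below T0 by its means without passing the test, but single libraries decided the value at 3 h. Without 3h replicate 2 the log2 fold change was -3.40 and passed (edgeR adjusted p = 0.0133), and without T0 replicate 2 it was -0.50 (adjusted p = 0.775). At 6 h the value without T0 replicate 2 was -0.61 (adjusted p = 0.690).

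The most abundant member, per length as well as in CPM, was a model of 861 nt that stood at 4674 CPM per kilobase at 1 h. It had 646, 811 and 638 CPM at T0, 3302, 3513 and 5258 CPM at 1 h, 716, 649 and 598 CPM at 3 h and 935, 346 and 748 CPM at 6 h. Its levels at T0, 3 h and 6 h overlapped, and the edgeR log2 fold change against T0 was -0.06 (SE 0.353, Benjamini-Hochberg adjusted p = 0.943) at 3 h and 0.05 (SE 0.353, adjusted p = 0.956) at 6 h. Together with models of 1155, 840, 486 and 947 nt, it made up the 5 members above 1000 CPM at 1 h, which held 36.7% of the summed CPM of the 103 genes at that time.

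The member with the largest rise, a model of 1746 nt, had 15.5, 11.2 and 34.3 CPM at T0, 666, 602 and 802 CPM at 1 h, 141, 93.3 and 100.3 CPM at 3 h and 59.2, 173 and 84.1 CPM at 6 h. Every library at 3 h and 6 h was above every T0 library, so this gene came down from its peak but stayed above its start. It kept 48.4% of its rise in mean log2(CPM + 2) at 3 h and 44.5% at 6 h.

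At the low end, 16 members reached 10 CPM at 1 h only, with 1 h means from 10.3 to 38.0 CPM. In the 1 h library where they were lowest they had 6 to 21 reads. In all, 19 members had fewer than 20 reads in a 1 h library, and these are the least precisely measured of the 103.

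Per length, the median level of the group at T0 was close to that of all genes at 10 CPM. In CPM per kilobase, the medians of the members were 30.6, 115, 27.3 and 27.4 at T0, 1 h, 3 h and 6 h. All 9447 genes at 10 CPM had medians of 32.0, 29.6, 30.8 and 28.7 at the same times. Without regard to length, the members stood lower at T0. Their median log2(CPM + 2) was 4.70, 5.16 and 4.68 in T0 replicates 1 to 3, against 5.69, 5.41 and 5.58 for all genes at 10 CPM.

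How much of each peak was left at 3 h and 6 h was not set by the rule beyond an upper bound. That bound was lower the smaller the rise. With 1 h at least 1 above each other time, only the 42 genes with a rise of at least 2 could keep 50% or more. The class counts and medians below are thus partly set by the choice of genes. At 3 h, 48 genes stood at or below T0, 26 had kept up to 25% of their rise in mean log2(CPM + 2), 22 had kept over 25% to 50% and 7 had kept more. The counts at 6 h were 59, 20, 21 and 3 in the same classes. The median share of the rise that was left was 3.61% at 3 h (quartiles -26.0% and 29.9%) and -9.38% at 6 h (quartiles -32.2% and 22.6%), where a negative share means a level below T0. Lower means than at T0 were found for 46.6% of members at 3 h and 57.3% at 6 h, against 51.0% and 56.9% of all genes at 10 CPM.

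At 3 h against T0 the edgeR quasi-likelihood test over 11813 genes called 11 of the 103 members higher and 2 lower at a Benjamini-Hochberg adjusted p under 0.05. That is 10.7% of members against 4.97% of all genes tested for higher, and 1.94% against 4.62% for lower. The remaining 90 did not pass, and the median log2 fold change was 0.09 over the members and 0.03 over all genes. In both directions together this was 12.6% of members and 9.59% of all genes tested. Without 3h replicate 2 the test called 13 members higher and 7 lower, 19.4% of members against 7.91% of all genes. Without 3h replicate 1 it called 6 and 1 (6.80% against 4.07%), and without 3h replicate 3 it called 7 and 1 (7.77% against 5.08%). With DESeq2 the counts were 17 and 4 (20.4% against 15.4%), and a fit that took the dominant models' log2 share as covariate gave 7 and 1 (7.77% against 5.34%). All 3 libraries at 3 h lay above all T0 libraries for 18 members (17.5%, against 14.4% of genes at 10 CPM) and below them for 9 (8.74%, against 16.2%). By their means, 17 members were higher at 3 h by at least 1 in log2(CPM + 2) and 5 lower by as much, against 8.13% and 6.05% of genes at 10 CPM.

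The 11 members still higher at 3 h had log2 fold changes against T0 from 1.02 to 3.70, with a median of 2.04 and adjusted p-values from 0.000175 to 0.0463 (edgeR quasi-likelihood test, Benjamini-Hochberg adjustment). A model of 2296 nt had the largest. It had 41.3, 40.1 and 44.6 CPM at 3 h, against 4.69, 2.50 and 0.816 CPM at T0, after 136, 94.6 and 59.3 CPM at 1 h. Against T0 its log2 fold change was 3.70 (SE 0.436) at 3 h and 3.38 (SE 0.435) at 6 h, with adjusted p-values of 0.000175 and 0.000457 by the same edgeR test. At T0 it had 41, 4 and 1 reads, so the size of these folds rests on few reads. It had kept 75.3% of its rise at 3 h and 64.9% at 6 h, the most of any member at either time.

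A model of 700 nt came next. It had 84.7, 85.7 and 64.7 CPM at 3 h, against 13.6, 8.75 and 0 CPM at T0, and 278, 125 and 225 CPM at 1 h. The 3 h and T0 groups did not overlap, and the rule had set 1 h above both. At 6 h its libraries had 42.2, 19.8 and 57.8 CPM. Its edgeR log2 fold change against T0 was 3.22 (SE 0.566, Benjamini-Hochberg adjusted p = 0.00251) at 3 h and 2.32 (SE 0.556, adjusted p = 0.0190) at 6 h. The call at 6 h was lost without 6h replicate 3 (1.94, adjusted p = 0.0757) and in the fit of the 6 libraries of both times (adjusted p = 0.0718). The member with the largest rise, of 1746 nt, was also called. Its fold over T0 was 5.92 at 3 h (adjusted p = 0.00223) and 6.15 at 6 h (adjusted p = 0.00234) in that edgeR test.

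The 2 members called lower at 3 h were proteins 4946 and 3027490; the second was picked after its values were seen. Protein 4946, of 357 nt, had 7.14, 19.2 and 2.96 CPM at 3 h, against 272, 232 and 34.3 CPM at T0, and its 1 h libraries had 464, 506 and 864 CPM. The 3 h and T0 groups did not overlap, although T0 replicate 3 lay far below the other T0 libraries. Its edgeR log2 fold change was -4.17 (SE 0.748), an 18.1-fold lower level, and the Benjamini-Hochberg adjusted p was 0.00283. At 6 h it had 9.61, 11.6 and 20.0 CPM, a log2 fold change against T0 of -3.58 (SE 0.723, adjusted p = 0.00676 by edgeR). Its mean was highest at 1 h, as the rule required, and lowest at 3 h, where the libraries overlapped those of 6 h. Both edgeR calls against T0 held in all 20 other settings tried, with adjusted p-values up to 0.0338. The log2 fold change at 3 h was -5.20 without 3h replicate 2 and between that and -3.68 in the others.

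Protein 3027490, of 900.0 nt, had 8.97, 14.0 and 6.74 CPM at 3 h, against 23.4, 25.6 and 27.7 CPM at T0, and its peak had reached 94.8, 45.2 and 81.1 CPM. For 3 h against T0 edgeR gave a log2 fold change of -1.31 (SE 0.393), with a Benjamini-Hochberg adjusted p of 0.0463. The call was lost in 11 of 20 other settings, where the adjusted p ran up to 0.188 and the log2 fold change stayed between -1.72 and -1.04. The fits without any 1 of the T0 libraries, without 3h replicate 1 and without 3h replicate 3 were among these. With the replicate number as a block the adjusted p was 0.0757, while the other member called lower and the 11 called higher kept their calls and 1 more member was called lower. At 6 h its libraries had 13.8, 8.26 and 18.4 CPM, all below T0, and the log2 fold change of -0.77 (SE 0.387) did not pass, with an adjusted p of 0.250 by edgeR.

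**Figure D3:**
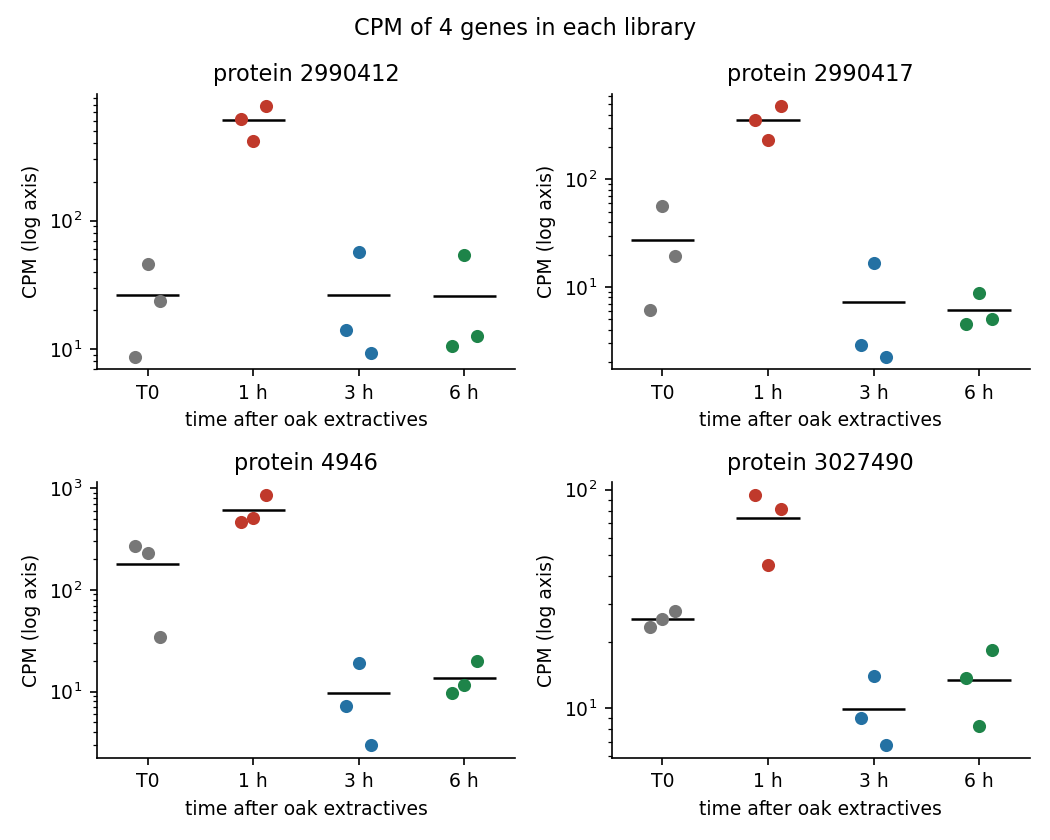
CPM (log axis) of proteins 2990412, 2990417, 4946 and 3027490 in each library at T0, 1, 3 and 6 h, with lines at the group means (n = 3). The 1 h points are the highest in each panel, as the rule required. The points of proteins 4946 and 3027490 at 3 h lie below all of their T0 points.

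At 6 h against T0, 9 members were called higher by the same test (8.74%, against 4.35% of all genes tested) and 1, protein 4946, lower (0.971%, against 3.18%). The 9 had log2 fold changes from 1.06 to 3.38 with adjusted p-values from 0.000457 to 0.0345 (edgeR quasi-likelihood test, Benjamini-Hochberg adjustment). A model of 1318 nt among them had 36.0, 4.13 and 48.3 CPM at 6 h, against 5.50, 8.75 and 2.45 CPM at T0. Its log2 fold change of 2.50 (SE 0.648) had an adjusted p of 0.0280 by edgeR although 6 h replicate 2 lay inside the range of the T0 libraries. The call was lost in 6 of 20 other settings, without T0 replicate 1 or 3 and without 6h replicate 1 or 3 among them, with an adjusted p up to 0.126. In both directions together, 9.71% of members and 7.53% of all genes were called at 6 h against T0. Without T0 replicate 1 the counts were 5 higher and 1 lower (5.83% of members against 3.53% of all genes), and with the 6 libraries of both times alone they were 4 and 1 (4.95% against 3.83%). All 6 h libraries lay above all T0 libraries for 12 members (11.7%, against 11.1% of genes at 10 CPM) and below them for 9 (8.74%, against 15.8%). The means of 12 members were higher by at least 1 in log2(CPM + 2) and those of 7 lower by as much, against 6.68% and 7.46% of genes at 10 CPM. The comparisons at 3 h and 6 h share the T0 libraries.

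**Figure D4:**
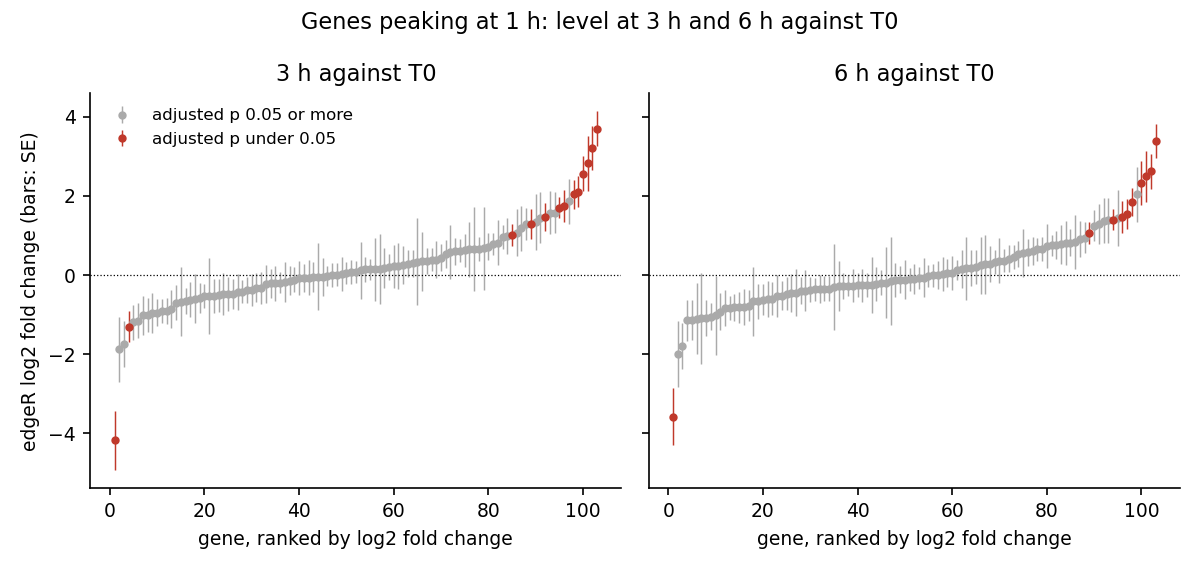
edgeR log2 fold changes of the 103 genes at 3 h (left) and 6 h (right) against T0, ranked from lowest to highest, with standard errors as bars. Red marks the 13 genes at 3 h and the 10 at 6 h with an adjusted p under 0.05, 2 of the 13 and 1 of the 10 below 0.

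Between 6 h and 3 h, no member was called in either direction (0 of 103, as for 0% of all genes tested) by edgeR. DESeq2 gave an adjusted p for 77 members and called none of these, while it called 8 of the 7019 genes with an adjusted p (0.114%). At an unadjusted p under 0.05 by edgeR, 2 of the 103 members were higher and 3 lower, against 256 and 170 of the 11813 genes tested. The median log2 fold change was -0.08 over the members and -0.02 over all genes. By their means 72 members (69.9%) were lower at 6 h than at 3 h, against 60.2% of genes at 10 CPM. A difference of at least 1 in log2(CPM + 2) was seen upward in 0 members (0.360% of genes at 10 CPM) and downward in 2 (1.09%). The groups did not overlap for 9 members, 1 of them higher at 6 h (3.04% of genes at 10 CPM) and 8 lower (7.01%).

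Since the 1 h libraries chose the members, each was left out in turn, the rule was applied to the other 11, and the left-out library was then read. The T0, 3 h and 6 h libraries that it was compared with had also chosen these genes as low. The passing shares of the chosen genes are thus partly set by the choice, while those of all genes are not. Without 1h replicate 1 the rule found 150 genes, and 82 of these (54.7%) passed the same margin in that library and lay there above every other library. Of all genes at 10 CPM, 1.51% did so. Without 1h replicate 2 it found 155 genes, of which 74 (47.7%, against 2.29%) did so, and without 1h replicate 3 it found 103, of which 86 (83.5%, against 2.89%) did so. The median margin in the left-out library was 1.11, 0.98 and 1.50 for replicates 1 to 3, of which replicate 2 was the shallowest library. Each median is over the genes chosen without that library, so the values do not rank the libraries on the same genes. Of the 103 members, 53 had their highest 1 h level in replicate 3 (51.5%, against 23.5% of genes at 10 CPM), 27 in replicate 2 (26.2%, against 38.1%) and 23 in replicate 1 (22.3%, against 38.4%).

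Libraries of other times also differed in how high the members stood. Of the 103 genes, 50 were highest of the T0 libraries in replicate 2 (48.5%, against 29.3% of genes at 10 CPM), and 53 were highest of the 3 h libraries in replicate 2 (51.5%, against 29.4%). The median log2(CPM + 2) of the members was 4.70, 5.16 and 4.68 in the T0 libraries and 4.81, 5.10 and 4.66 in the 3 h libraries. The labels give no batch that these libraries share. At 3 h against T0, 13 members were called higher and 7 lower without 3h replicate 2, as given above. Without T0 replicate 2 the counts were 12 and 1 (12.6% of members against 9.45% of all genes). The median SD of log2(CPM + 2) between replicates was 0.49, 0.36, 0.37 and 0.48 for the members at T0, 1 h, 3 h and 6 h, and 0.44, 0.34, 0.28 and 0.32 for all genes at 10 CPM.

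The members were shorter than most genes, with a median model length of 1035 nt (quartiles 784 and 1408) against 1356 nt (quartiles 908 and 1947) over all genes at 10 CPM. With the genes split by length into 4 classes of nearly equal number, 34 members lay in the shortest class, 41 and 23 in the middle classes and 5 in the longest, which is 1.44%, 1.73%, 0.976% and 0.212% of the genes there. Length moved with the 1 h libraries over the whole table. The median difference between the 1 h mean and the average of the other times, in log2(CPM + 2), was 0.19, 0.04, -0.08 and -0.19 from the shortest to the longest class. With each library's trend on length removed, a setting added once the data had been looked at, the rule found 98 genes, 88 of them among the 103.

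Few members had reads shared with other models. Of the 103 members, 15 (14.6%) had any shared read, as had 13.1% of genes at 10 CPM. Over 10% shared reads were found in 5 members (4.85%), against 2.68% of genes at 10 CPM. The highest share was 56.0%, in 1 gene, whose level is therefore uncertain. The proteins named by ID here had none.

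Several members had neighbouring protein IDs. Within 10 numbers of a member there were 130 other genes at 10 CPM, of which 10 (7.69%) were members, while members made up 1.09% of all genes at that level. Within 20 numbers it was 13 of 274 (4.74%). Proteins 2990412 and 2990417 belong to the closest set, whose 5 members are among those 13. From 17 numbers below to 17 above protein 2990412, the table lists 9 IDs, all at 10 CPM, and 5 of them are members. These bounds were drawn after the values were seen and end at the outermost member, and the 4 IDs listed from 28 to 18 numbers below are no members. Of the other members of that set, a model of 673 nt had 183, 100.1 and 187 CPM at 1 h, against 5.61, 8.75 and 0.816 CPM at T0. A model of 1026 nt had 162, 119 and 190 CPM at 1 h, against 12.8, 30.0 and 35.1 CPM at T0. The last had 430, 314 and 518 CPM at 1 h, against 17.5, 166 and 77.5 CPM at T0, and 68.8, 270.1 and 44.5 CPM at 3 h, where replicate 2 came close to the 1 h libraries. A sixth ID of the set had 540, 367 and 521 CPM at 1 h and a margin of 1.36, and was left out only because 3 h replicate 2, at 429 CPM, exceeded a 1 h library. The other 3 had margins of -0.20, 0.22 and -0.17. None of the 5 members had shared reads. What the order of the IDs stands for is not given in the sources used here.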

How the data were processed

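RNA of 12 cultures was sequenced on an Illumina HiSeq2500, per the labels and the design text, and samples were grouped by their titles. For each sample the authors deposited counts of unique and of total reads per gene model and the RPKM of 13602 protein IDs, per the file headers. On aligner, genome build, annotation and strandedness, nothing is given in the sources used here. Counts were used as deposited. The deposited RPKM values served only to recover model lengths (largest relative gap between libraries 1.6e-08), and levels per length were computed from CPM and these lengths.

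Members were found with Python 3.11.15 by the rule given above. Total gene reads of all models were fitted with edgeR 4.0.16 in R 4.3.3 (filterByExpr, 11813 genes, TMM, glmQLFit and glmQLFTest, 4 groups, 8 residual degrees of freedom) and p-values were Benjamini-Hochberg adjusted over all genes tested. CPM are scaled to the reads outside the 2 dominant models, while edgeR folds rest on TMM-scaled totals; SE is the fold over the square root of F. Contrasts with 1 h chose the members, and no test of them is reported. Deviations from the group mean correlated in all 3 same-numbered pairs of 3 h and T0 (0.199 to 0.412). In no other pair of times did all 3 exceed 0.1. An unlike-numbered pair, T0 replicate 1 and 3 h replicate 3, reached 0.328. Of the 12 libraries, 6 correlated best with their own number in the other times. Whether the numbers mark pairs is thus not settled, and the main fit used no pairing. DESeq2 1.42.0 and the other settings are in the closing section. The scripts were checked on simulated counts.

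Named were, by rule, the 2 members with the widest margin and the 2 lowest at 6 h against T0, with protein 2990417 in both; protein 3027490 and the genes given by length were added after their values were seen. Gene lists by function were planned but not used, since IDs carry no names. The members and lists were chosen with earlier results of these data known. Replicates are biological, per the labels.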

Additional observations from a re-analysis of the deposited data

How the results depend on the processing

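The number of genes peaking at 1 h stayed within 1.5 times of 103 in 20 of 22 other settings. It was 25, all of them among the 103, with the 2 dominant models kept in the library size, and it ran from 95 to 155 with 1 library left out, the highest without 1h replicate 2. Thinning every library to 729521 reads, chosen after the data were seen, gave 105 genes, 90 of them among the 103, and TMM scaling gave 107 with 96. The members called at 3 h against T0 came to 13, with 21 by DESeq2, 8 with the share of the dominant models as a covariate and from 7 to 20 with 1 library left out. Those at 6 h against T0 came to 10, with 5 in the fit of 6 libraries alone and from 6 to 13 with 1 library left out. Between 6 h and 3 h the count was 0 in all 20 settings. For protein 2990412, far from any call, the log2 fold change with 1 library left out ran from -1.16 (without 3h replicate 2) to 1.05 (without T0 replicate 2) at 3 h and from -1.04 (without 6h replicate 2) to 1.08 (without T0 replicate 2) at 6 h. It was also below 0 without T0 replicate 1, at -0.38 and -0.36. The cause of these shifts was not tested. The share of the rise left and the readings of the left-out library were tried in 4 other settings each. They moved by less than the SD between replicates, which was 5.91 and 5.96 points for the share and a wide 19.0 for the readings. With TMM the share at 6 h went from -9.38% to -3.52%. Keeping the dominant models in the library size and leaving out 1 library were not among the settings for the share. The correlation of the deviations of same-numbered libraries exceeded 0.1 in 5 of 18 pairs, the 3 pairs of 3 h and T0 among them. With the replicate number as a block, 13 members were called at 3 h and 9 at 6 h, and of the proteins given by ID, protein 3027490 at 3 h changed its call. TMM in place of CPM moved the median of all genes at 10 CPM at 6 h against T0 from -0.11 to 0.01. Depth limits the low members most, since 3 reads stand for 4.11 CPM in 1 h replicate 2.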
